A study of Drosophila melanogaster with 2 samples.

Results

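The regions described here are the weaker peaks that both replicates found: peaks of the pooled peak list that missed the authors' reproducibility threshold but had a peak summit within 100 bp in the list of replicate 2 and in the list of replicate 3. They are called weaker shared peaks here. There were 7308 of them among 25791 pooled peaks on build dm6. They made up 36.4% of the 20090 pooled peaks below the threshold (95% Wilson interval 35.7 to 37.0), whereas 96% of the 5701 thresholded peaks were matched in the same way. The peaks were selected on measured values, namely the pooled signal, which separates them from the thresholded peaks, and the match in both replicates. Signal, rank and summit distance are therefore given as descriptions only.

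The study mapped, by chromatin immunoprecipitation and sequencing (ChIP-seq), where the transcription factor E(spl)m3-HLH was recovered on the Drosophila melanogaster genome. There was 1 group, made of whole embryos of both sexes aged 0 to 24 h from a transgenic line that stably made E(spl)m3 with GFP fused to its C terminus. It had 2 biological replicates, numbered 2 and 3, each with 1 technical replicate, and the control library was not analysed here. The labels say that anti-GFP was used for the precipitation, although their antibody entry names E(spl)m3-HLH, and chromatin had been sonicated to 200 to 800 bp. A whole embryo pools all tissues and a full day of development, so low signal in many cells and high signal in a few cells or for a short time cannot be told apart. A sample without the tagged protein was not analysed here.

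E(spl)m3-HLH belongs to the Hairy/Enhancer of split proteins, basic helix-loop-helix repressors that bind DNA as dimers and recruit the corepressor Groucho. Their genes are direct targets of Notch signalling, in which the cleaved receptor enters the nucleus and acts with the DNA-binding protein Su(H). In the embryo these repressors keep cells next to a neural precursor from taking the neural fate. Proteins of this family are known to bind E-boxes such as CACGTG and related sequences such as CACGCG.

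The strongest weaker shared peaks in introns or between genes that held 1 of 6 short sequences follow, to let the elements be seen in their surroundings. Each line is the 101-base window centred on the pooled summit, on the plus strand of dm6 from RefSeq, with the element in capitals. The windows lay at chrX:8583306-8583406 in an intron of CG12065 (CACGTG, the palindromic E-box), at chrX:13322275-13322375 in an intron of IP3K2 (CACGCG, present on the minus strand), at chr3L:1479449-1479549 in an intron of stet (GAGAG, the core bound by GAGA factor), at chr3R:9185047-9185147 in an intron of pum (TATCGATA, the DNA replication-related element), at chr3L:11414578-11414678 between genes with CG7560 nearest (GGTCACACT, core promoter motif 1) and at chr3L:17007120-17007220 in an intron of CG3764 (TATAAA, the TATA box).
CG12065 intron: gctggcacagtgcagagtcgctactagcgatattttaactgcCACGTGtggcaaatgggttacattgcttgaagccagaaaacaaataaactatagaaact
IP3K2 intron: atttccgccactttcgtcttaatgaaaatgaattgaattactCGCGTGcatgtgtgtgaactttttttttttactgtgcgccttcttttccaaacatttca
stet intron: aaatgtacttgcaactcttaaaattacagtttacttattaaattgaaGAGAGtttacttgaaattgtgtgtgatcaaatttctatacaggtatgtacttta
pum intron: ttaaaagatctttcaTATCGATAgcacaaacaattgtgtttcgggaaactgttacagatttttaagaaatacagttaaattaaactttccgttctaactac
CG7560 intergenic: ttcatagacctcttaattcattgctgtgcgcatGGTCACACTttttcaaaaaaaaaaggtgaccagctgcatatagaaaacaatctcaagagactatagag
CG3764 intron: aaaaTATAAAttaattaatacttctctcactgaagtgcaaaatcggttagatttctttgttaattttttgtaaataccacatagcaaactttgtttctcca
The E-box window had a pooled signal of 98.1, with 67.9 in replicate 2 and 35.3 in replicate 3. The CACGCG window had a pooled signal of 104, with 68.3 and 34.7 in replicates 2 and 3. Pooled signals of the other windows were 108 at stet, 107 at pum, 107 near CG7560 and 108 at CG3764, all just under the threshold. These windows were chosen because they hold the elements, so they are illustrations and say nothing on how often the elements occur.

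The pooled signal of the weaker shared peaks ran from 31.1 to 108 with a median of 61.6, and 80% lay between 40.8 and 96.0. Each signal was taken as the authors deposited it. Its definition and scale are not stated, so values are compared only within a list. The thresholded peaks ran from 108 to 3847 with a median of 193. Peaks below the threshold found in 1 replicate had a median of 39.0, and those found in neither 34.5. The weaker shared peaks therefore filled the range just under the threshold and thinned out below it. When the below-threshold list was cut by pooled signal into 5 bands of equal size, from the strongest (band 1) to the weakest (band 5), they were 80.5%, 54.3%, 31.6%, 12.6% and 2.94% of the peaks in turn. On the edge itself, the weakest thresholded peak, near crc, had a signal of 108.143 (chr2L:21310331-21310746), and the strongest weaker shared peak, with CG6959 as its nearest gene, had 108.129 (chr3R:11851987-11852402). The weakest one lay in an intron at chr2R:15411816-15412231 with a signal of 31.1, and Mtk, which encodes the antimicrobial peptide Metchnikowin, was its nearest gene. At the match distance, a peak near shn (signal 88.9) was kept because its summit in replicate 3 lay 100 bp away, and a peak near Gdh (signal 90.8) was left out because it lay 101 bp away.

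**Figure D1:**
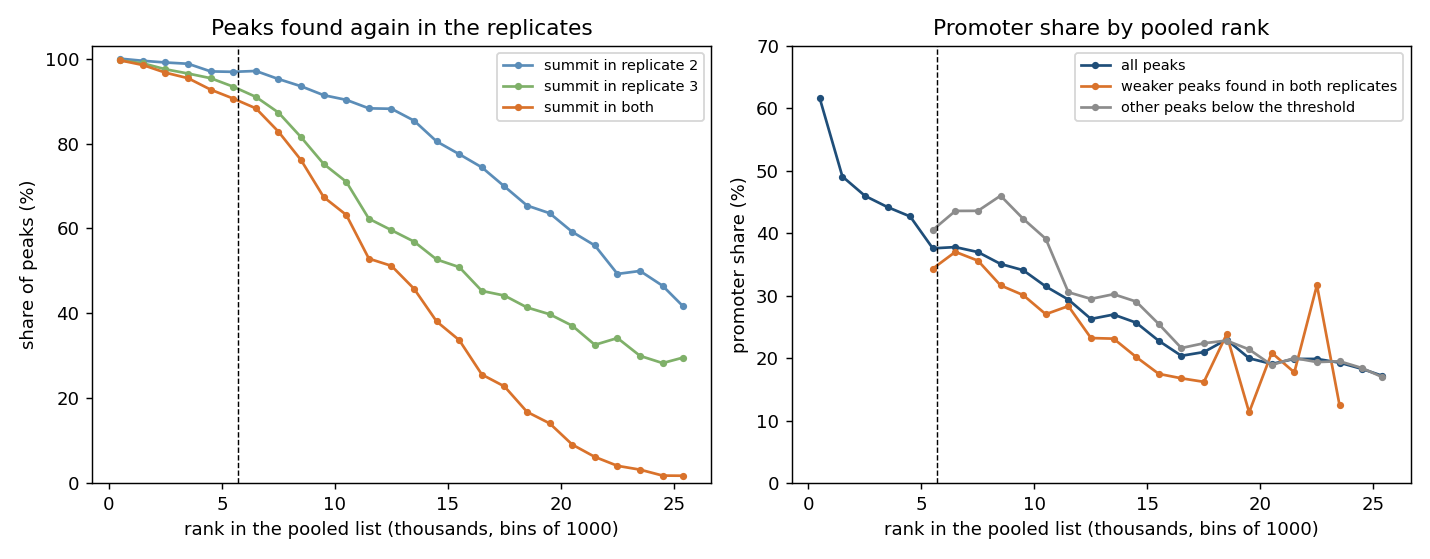
Left, the share of pooled peaks (%) with a summit within 100 bp in replicate 2, in replicate 3 and in both, in bins of 1000 peaks by rank in the pooled list, with the threshold as a dashed line. Right, the promoter share (%) of all peaks and, below the threshold, of the weaker shared peaks and of the others, without bins of fewer than 20 peaks. Found-in-both falls from 99.6% in the strongest bin to 1.77% in the weakest, and between ranks 6001 and 18000 the weaker shared peaks lie below the others in promoter share.

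The pooled list was made from the reads of both replicates, so a match is not independent of pooled signal, and the replicates did not contribute alike. Of the other peaks below the threshold, 7528 were found in replicate 2 only, 3410 in replicate 3 only and 1844 in neither. The list of replicate 2 held exactly 30000 peaks and that of replicate 3 held 24781, and 4.50% and 3.72% of the bases of the arms lay within 100 bp of a summit of those lists. The weaker shared peaks had a median signal of 34.5 in replicate 2 (17.5 to 125) and of 24.3 in replicate 3 (15.7 to 138). Their median ranks there were 12098 and 11366.5, and their median summit distances were 8 bp and 20 bp. Every one of them was matched to a summit of its own in each replicate, so none shared a replicate summit with another or with a thresholded peak.

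Replicate signals ordered the weaker shared peaks less alike than they ordered the thresholded ones. Spearman's rho between the replicates' signals was 0.404 over the 7308 peaks and 0.813 over the 5473 thresholded peaks matched in both. Pearson's r on the log2 scale was 0.389 and 0.865. These are descriptions across peaks of 2 libraries, and the narrower signal range of the weaker peaks differs between the groups as well. The pooled signal followed replicate 2 more closely (rho 0.876) than replicate 3 (0.681). Only 290 of the weaker shared peaks (3.97%) ranked among the 5701 strongest of replicate 2, and 565 (7.73%) did in replicate 3. Only 16 did so in both, and 6469 (88.5%) in neither.

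**Figure D2:**
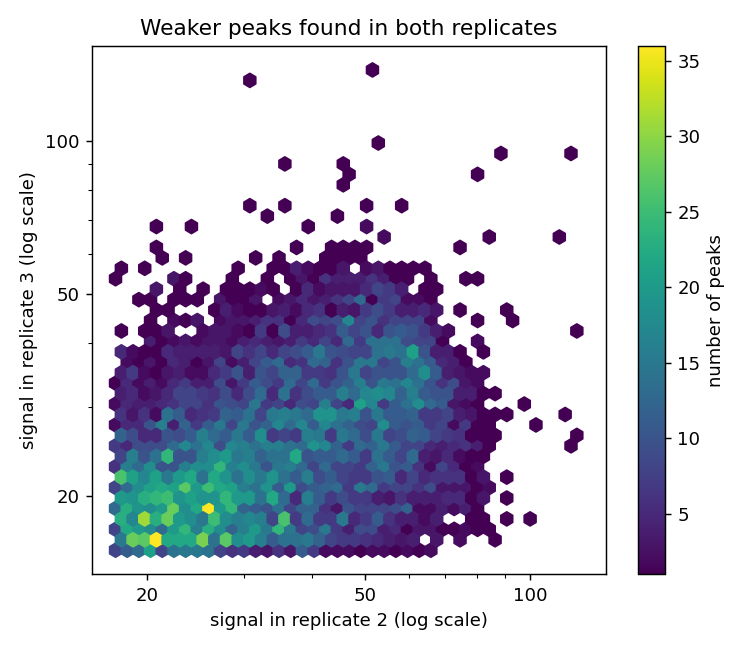
Signal in replicate 3 against signal in replicate 2 for the 7308 weaker shared peaks, both on log scales, with the colour giving the number of peaks per hexagon. The peaks are densest toward the lower limits of both lists (17.5 and 15.7), and the cloud widens without a narrow diagonal (Spearman's rho 0.404).

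The few weaker shared peaks that ranked best in both replicates mostly sat beside a thresholded peak. Of the 10 weaker shared peaks with the best mean rank over the replicates, 9 lay within 250 bp of a thresholded summit, against 4.87% of all 7308, and 12 of the 16 named above did. These sets largely overlap, and the pooled signal was used to choose the peaks, so the counts are descriptions only. The best was the peak 152 bp upstream of the start site of CG32137 (chr3L:13939001-13939127), with signals of 118 and 92.3 in the replicates and 93.4 in the pooled list, and a thresholded summit 230 bp away. At RapGAP1, which encodes a GTPase-activating protein, the replicate signals were 87.9 and 92.7 and the pooled signal was 44.1, 208 bp from a thresholded summit. At gce, which encodes a juvenile hormone receptor, they were 50.9 and 138 and the pooled signal was 89.9, at 220 bp. At aop, which encodes the ETS-domain repressor Yan, they were 90.3 and 47.4 and the pooled signal was 94.7, at 199 bp, the shortest distance of any weaker shared peak from a thresholded one. The exception was a peak in an intron with CG18666 as nearest gene, 13138 bp from a thresholded summit, with 79.1 and 54.6 in the replicates and 107 in the pooled list.

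Of all weaker shared peaks, 955 (13.1%, interval 12.3 to 13.9) lay within 1 kb of a thresholded summit, and the median distance was 5864 bp. The other peaks below the threshold did so in 10.2%, a difference of 2.83 percentage points (Newcombe interval 1.91 to 3.78). Within bands of signal the difference was -4.44 points in band 1 (-7.62 to -1.49), -1.05 in band 2 (-3.17 to 1.04), -2.25 in band 3 (-4.11 to -0.262), 2.33 in band 4 (-0.309 to 5.49) and 4.20 in band 5 (-0.548 to 11.3). Only bands 1 and 3 had intervals that excluded 0, in the direction opposite to the whole list. As for their own spacing, 1095 (15.0%) had another weaker shared peak within 1 kb and 4038 (55.3%) within 5 kb. Width hardly varied, since 7297 of the 7308 were 416 bp wide, compared with 67.6% of the thresholded peaks.

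Fewer of the weaker shared peaks lay at promoters than of the thresholded peaks. A promoter summit was one within 500 bp of a transcription start site (TSS), and 27.7% of the weaker shared peaks (2027 peaks, interval 26.7 to 28.8) were of this kind, compared with 47.5% of the thresholded peaks. The difference was -19.7 percentage points (Newcombe interval -21.4 to -18.1). Introns held 42.7% against 35.3% (difference 7.41 points, 5.72 to 9.08), and intergenic sequence held 23.8% against 14.8% (9.05 points, 7.70 to 10.4). Coding exons held 1.77% against 0.228% (1.54 points, 1.22 to 1.88), and 3' UTRs held 2.29% against 0.895% (1.39 points, 0.967 to 1.82). For scale, 13.6% of the bases of the arms fell in the promoter class and 13.9% in coding exons, so both kinds of peak were more frequent at promoters and less frequent in coding exons than the bases themselves. Intervals here cover the counting of peaks. Peaks of 1 pair of libraries are not replicates.

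**Figure D3:**
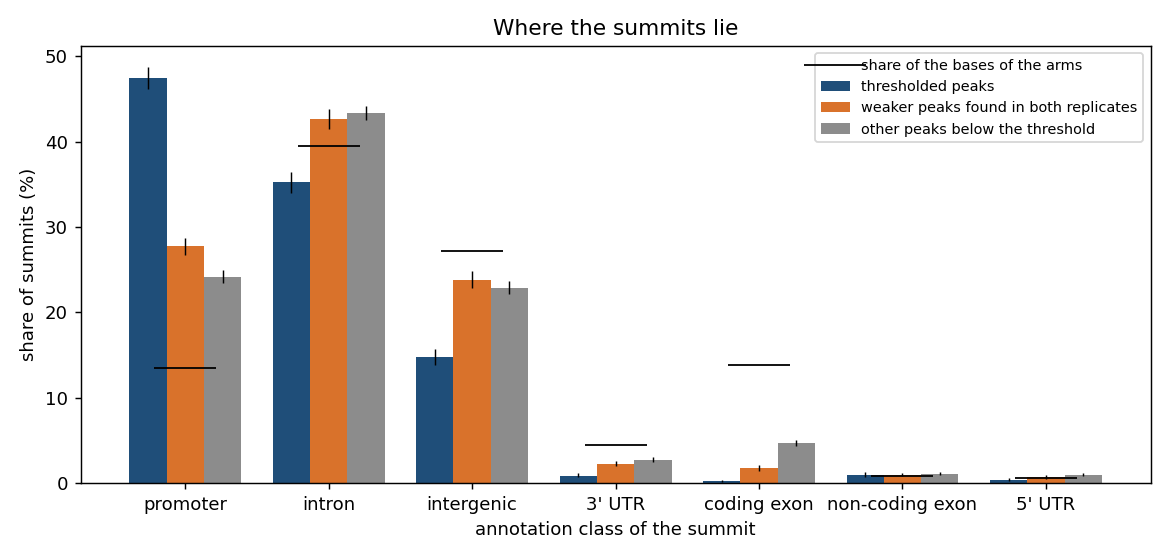
Share of summits (%) in each annotation class for thresholded peaks, weaker peaks found in both replicates and other peaks below the threshold, with 95% Wilson intervals as error bars and the share of the bases of the arms as a black line. The promoter bar drops from 47.5% to 27.7% to 24.2% and the coding exon bar rises from 0.228% to 1.77% to 4.66%.

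Compared with the other peaks below the threshold, the weaker shared peaks had a higher promoter share over the whole list and a lower one in the stronger bands of signal. Over the whole list the shares were 27.7% and 24.2%, a difference of 3.56 points (2.30 to 4.83). When the match in replicate 2 was not required, the difference was -0.72 points (-1.93 to 0.489) and no longer called. In band 1 by pooled signal, however, 34.1% of the weaker shared peaks and 44.0% of the others were promoters (-9.87 points, -13.7 to -6.06). In band 2 these were 26.2% and 32.6% (-6.41 points, -9.23 to -3.58), and in band 3 they were 18.0% and 24.7% (-6.75 points, -9.35 to -4.03). Band 4 (-1.22 points) and band 5 (0.80 points, from 118 weaker shared peaks) had intervals that included 0. The mean over the 5 bands was -4.69 points (-6.64 to -2.73). Peaks found in replicate 2 only were promoters in 27.2%, those found in replicate 3 only in 19.6%, and those found in neither in 20.5%. The counterpart was intergenic sequence, which was more common among the weaker shared peaks by 6.69, 5.05 and 4.88 points in bands 1, 2 and 3, with intervals that excluded 0. Coding exons, rarer among them by -2.90 points over the whole list (-3.37 to -2.42), had intervals that included 0 in bands 1, 2, 3 and 5 and were rarer by -2.57 points in band 4 (-4.15 to -0.395).

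Promoter summits of the weaker shared peaks were placed differently around the TSS from those of the thresholded peaks. Of those within 500 bp of a protein-coding TSS, 68.9% lay upstream of the nearest one (1266 of 1838), compared with 86.9% for thresholded peaks (difference -18.0 points, -20.5 to -15.5) and 59.7% for the other peaks below the threshold (9.15 points, 6.33 to 11.9). The bin with most summits was the 50 bp just upstream of the TSS, with 17.8%. It was also the fullest for the other peaks below the threshold (13.3%), whereas the thresholded peaks had most (20.1%) from 100 to 50 bp upstream. TSSs on both strands within 500 bp were found at 22.9% of promoter summits and at 39.8% of thresholded ones (-16.9 points, -19.5 to -14.3). For the other peaks below the threshold this was 19.4% (3.51 points, 1.22 to 5.82). At matched signal the upstream share was close in both classes below the threshold, at 75.5% and 75% in band 1 and 63.9% and 63.7% in band 2. The nearest TSS was that of a non-coding RNA at 188 promoter summits and of a transfer RNA at 19.

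**Figure D4:**
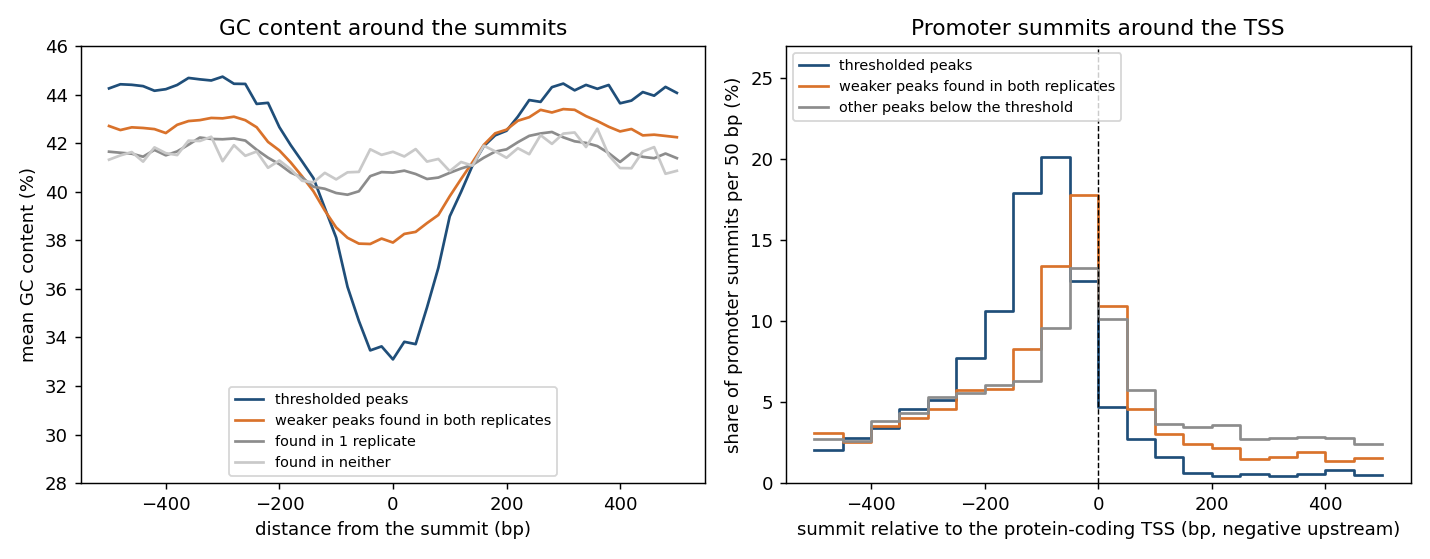
Left, mean GC content (%) in bins of 20 bp against the distance from the summit (bp) for the 4 classes of peaks. Right, the share of promoter summits (%) per 50 bp against their position relative to the nearest protein-coding TSS, with negative values upstream. The weaker shared peaks dip to 37.9% GC at the summit, between the thresholded peaks (33.1%) and the peaks of 1 replicate. Their promoter summits, like those of the other peaks below the threshold, are most frequent in the 50 bp upstream of the TSS.

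Base composition placed the weaker shared peaks between the thresholded peaks and the rest. The median GC content of the 101-base window at the summit was 37.6%, against 43.6% in windows centred 300 bp away. Thresholded peaks had 32.7% and 44.6%, peaks of 1 replicate 40.6% and 42.6%, and peaks of neither 41.6% and 42.6%, while the arms had 42.2% overall. The dip was larger away from promoters, where the summit window had 36.6%, than at promoters, where it had 39.6%. At matched signal the weaker shared peaks differed little from the others, with medians of 34.7% and 36.6% in band 1 and of 38.6% in both classes in band 2. Repeats, taken as windows of which over 50% was soft-masked, made up 7.21% of the weaker shared peaks and 8.65% of the thresholded ones. They made up 6.65% of the other peaks below the threshold. Of the single bases of the arms 20.1% were soft-masked, which is a different measure from a share of windows.

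No enrichment of the palindromic E-box at the summits was found. Searched on both strands, CACGTG was present in 1.14% of the summit windows of the weaker shared peaks and in 1.44% of their flanking windows, and in 1.19% of windows of the same width placed along the arms. Of 186 peaks with it in only 1 of the paired windows, the summit held it in 44.1% (exact interval 36.8 to 51.5). CACGCG was present in 2.18% of summit and 2.50% of flanking windows (summit share 46.4% of discordant pairs, 41.0 to 51.9). CACNAG, the N-box, was in 10.5% and 11.5% (47.4%, 44.7 to 49.98). CAGCTG, a proneural-type E-box, was in 3.75% and 5.15% (42.0%, 38.1 to 45.9). The thresholded peaks held CACGTG in 0.684% of summit and 1.65% of flanking windows, CACGCG in 1.18% and 2.96%, and CAGCTG in 3.58% and 4.84%. They held CACNAG in 9.70% and 12.3%. The lack of enrichment was thus not particular to the weaker shared peaks. The GAGAG core was in 12.3% of summit and 12.8% of flanking windows (48.9%, 46.4 to 51.4), whereas the thresholded peaks held it in 8.58% at the summit and in 15.98% beside it. The summits were poorer in GC than the flanks, and the part of this in the shares was not tested. The control string GGATCAG, the letters of the early embryonic element CAGGTAG in another order, was rarer at the summit, at 0.424% and 0.889% (31.9%, 22.7 to 42.3). So was GGAAG, the letters of GAGAG reordered, at 10.7% and 13.2% (43.9%, 41.4 to 46.4). GCATGC, which reorders the letters of CACGTG and CAGCTG, was in 2.11% and 2.15% (49.5%, 43.8 to 55.3).

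Of the other elements, 3 known from core promoters were more frequent at the summits than beside them. The thresholded peaks and the other peaks below the threshold had this too. TATCGATA, the DNA replication-related element found in promoters of replication and growth genes, was in 1.37% of summit windows and 0.356% of flanking ones (79.8% of discordant pairs, 71.7 to 86.5), and GGTCACACT, core promoter motif 1, was in 0.725% and 0.274% (72.6%, 60.9 to 82.4). Both were more frequent at promoters: TATCGATA was in 4.14% of promoter summits and 0.303% of other summits, and GGTCACACT in 2.22% and 0.151%. Windows at annotated TSSs held them in 4.48% and 3.64%. Only 27.5% of the promoter summits lay within 50 bp of a TSS, so these windows mostly cover other positions than the summit windows. TATAAA was in 16.5% of summit and 10.7% of flanking windows (62.1%, 59.8 to 64.4), but in 14.4% of promoter summits against 17.4% of other summits, and in 15.5% of TSS windows. Its rearranged control ATTAAA, added after seeing the data, was also more frequent at the summit, with 19.2% against 15.9% (55.7%, 53.5 to 57.8). Thresholded peaks held TATCGATA in 1.67% of summit and 0.544% of flanking windows, GGTCACACT in 0.544% and 0.333%, and TATAAA in 21.9% and 9.40%. For the other peaks below the threshold these were 0.790% and 0.344%, 0.438% and 0.164%, and 13.0% and 11.2%. At matched signal, TATAAA was in 18.9% of weaker shared and 18.4% of other summits in band 1. In band 4 it was in 10.5% and 12.1%. A match is a description of the letters and was not tested as a site.

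On the chromosomes, the weaker shared peaks were densest on X, with 62.3 per Mb, and ran from 46.7 per Mb on 4 and 47.4 on 2R to 58.0 on 3L. X held 20.1% of them (interval 19.2 to 21.0), 15.98% of the other peaks below the threshold (difference 4.08 points, 2.97 to 5.20) and 18.8% of the thresholded peaks (1.26 points, -0.12 to 2.62). X also held 18.3% of the whole list of replicate 2 and 16.5% of that of replicate 3. The small chromosome 4 carried 63 weaker shared peaks and 20 thresholded ones, or 46.7 and 14.8 per Mb, whereas on the other arms the densities of both kinds were closer (47.4 to 62.3 and 38.5 to 45.5). The other peaks below the threshold had 87.5 per Mb on 4 and 86.8 to 108 on the other arms. The contrast with thresholded peaks was thus not particular to the weaker shared peaks.

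A weaker shared summit lay within 1 kb of a TSS of 2691 protein-coding genes, or 19.3% of the 13945 genes, and a thresholded summit of 3734 (26.8%). Both occurred at 816 genes, which are 30.3% of the former and 21.9% of the latter. That left 1875 genes (13.4% of all) with a weaker shared peak and no thresholded one. By nearest TSS, 4009 genes (28.7%) had at least 1 weaker shared peak, of which 2512 had 1, 1259 had 2 to 4, 207 had 5 to 9 and 31 had 10 or more. The share with a summit within 1 kb depended on the number of start sites: it was 14.4% for genes with 1 TSS, 29.5% with 2 or 3 and 58.6% with 4 or more.

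The 10 genes whose TSSs were nearest to most weaker shared peaks had 12 to 18 each, and the counts were not scaled by gene length. CG12362 had 18, none of them inside the gene and the farthest 69233 bp from its TSS. fz2, which encodes a Wingless receptor, had 17, all inside its 94399 bp, with pooled signals of 35.6 to 104. hth, which encodes the homeodomain cofactor of the Hox proteins, had 15, all inside the gene, and 12 thresholded peaks. Eip75B, an ecdysone-induced nuclear receptor, had 15 with 8 thresholded peaks. Rbp6, an RNA-binding protein, had 14 and Myc, the growth regulator, had 13, and CG43658, olf413, raskol and heph had 12 each.

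Among Notch pathway genes, 10 of 22 (45.5%, interval 26.9 to 65.3) had a weaker shared summit within 1 kb of a TSS, beside 19.3% of all genes, and 7 of the 10 had no thresholded summit there, beside 69.7% of all genes with a weaker shared summit. The median number of TSSs in the list was 1, as for all genes. The strongest lay 52 bp upstream of the TSS of Su(H) itself, at chr2L:15039228-15039643, with a pooled signal of 107.9 and replicate signals of 75.4 and 35.5. pen-2, a subunit of the gamma-secretase that cleaves Notch, followed with 105.5 pooled (59.4 and 45.1). That summit lay 202 bp upstream of the pen-2 TSS, and the TSS of another gene, Ote, was nearer to it. kuz, the metalloprotease that makes the cleavage before it, had 97.6 (53.9 and 39.6), and mib1, a ubiquitin ligase for the ligands, had 96.3 (68.96 and 28.7). These are near the upper limit for the weaker shared peaks. The others, named after their values were seen, were dx, Su(dx), neur and mam, the ligand Delta (69.3) and the receptor N (42.9). A thresholded summit lay within 1 kb of 10 of the 22 genes, N, neur and mam among them, beside 26.8% of all genes. The higher share was thus not particular to the weaker shared peaks.

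The E(spl) complex, 52.3 kb at chr3R:25997621-26049911 that hold the gene of the tagged protein and its relatives, had 6 weaker shared peaks and 10 thresholded ones, against 2.85 and 2.23 at the mean density of the genome. The other peaks below the threshold numbered 19 against 4.99 there, so the greater density was not particular to the weaker shared peaks. The strongest weaker one was found at E(spl)mbeta-HLH, 262 bp upstream of its TSS (82.2 pooled, 34.0 and 44.0 in the replicates), 212 bp from a thresholded summit. The one nearest to E(spl)m2-BFM had 79.1 pooled (44.2 and 28.1), and the one nearest to E(spl)mgamma-HLH had 60.1 (32.3 and 29.0). Below these came another nearest to E(spl)mbeta-HLH (52.5), the one 475 bp upstream of E(spl)m4-BFM (52.4) and the one at Kaz-m1 (44.9). Of the 7 bHLH genes of the complex, 1 (E(spl)mbeta-HLH) had a weaker shared summit within 1 kb (14.3%, interval 2.57 to 51.3), beside 19.3% of all genes. A thresholded one was within 1 kb of 4 of the 7, beside 26.8% of all genes.

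Genes of the Bearded family, small proteins that block the ligand-activating ubiquitin ligase Neuralized, had a weaker shared summit in 3 of 8 cases (37.5%, interval 13.7 to 69.4), beside 19.3% of all genes. None of the 3 had a thresholded summit, and neither did 69.7% of all genes with a weaker shared summit (1875 of 2691). Tom had a pooled signal of 64.0 (29.7 and 33.2 in the replicates), Ocho 62.3 (27.5 and 32.4) and E(spl)m4-BFM 52.4 (27.5 and 26.8). In replicate 3 all these signals were above the median of the weaker shared peaks, and in replicate 2 all were below it. Of the Hairy-related genes, Hesr was the only one of 5 with such a summit (49.8). None of 9 proneural genes had one (upper bound of the Wilson interval 29.9%).

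The counts that follow stand beside 19.3% of all genes, 14.4% of those with 1 TSS and 29.5% of those with 2 or 3, and a lack of thresholded summits beside the 69.7% given above. Hox genes had one in 4 of 8 cases (50%, interval 21.5 to 78.5): Abd-B (100.8 pooled), Dfd (97.3), Antp (58.7) and lab (46.6), of which only Antp also had a thresholded summit. These genes had a median of 2 TSSs. Neural precursor genes had one in 6 of 20 (30%, 14.5 to 51.9), led by brat, a growth suppressor of neuroblast daughters (91.9 pooled, 39.4 and 48.1 in the replicates), scrt, a zinc-finger factor of neurons (80.9), ttk, a repressor of neural fate (73.5), and neur (67.0). Mesoderm genes had one in 5 of 13 (38.5%, 17.7 to 64.5), none with a thresholded summit, led by Mef2, the muscle differentiation factor (80.2), and how, an RNA-binding protein of muscle and tendon (72.1). Cell cycle genes had one in 6 of 12 (50%, 25.4 to 74.6): the strongest were at dap, the inhibitor of cyclin E kinase (100.7 pooled, 69.3 and 21.5), the S-phase factor E2f1 (93.8), fzr, an activator of cyclin breakdown (81.7), and CycA, cyclin A (68.5). A thresholded summit was within 1 kb of 6 of these 12 genes as well, beside 26.8% of all genes. Genes of the wingless and Dpp pathways, with a median of 2 TSSs, had one in 5 of 15 (33.3%, 15.2 to 58.3), none with a thresholded summit, led by sog, the antagonist of Dpp (77.6), and tkv, the Dpp receptor (62.3). Among Polycomb and trithorax genes, also with a median of 2 TSSs, 4 of 13 had one (30.8%, 12.7 to 57.6), led by esc, a subunit of a Polycomb repressive complex (104.2), ash1, a trithorax-group methyltransferase (80.4), and Trl, which encodes GAGA factor (72.7).

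The remaining lists held pathway, differentiation and less related genes. Their shares stand beside 19.3% of all genes, 14.4% of those with 1 TSS and 29.5% of those with 2 or 3. EGFR pathway genes had one in 4 of 13 (30.8%), with aop, the activator pnt (84.6), the receptor Egfr itself (65.3) and its inhibitor kek1 (59.1). Glial genes had one in 3 of 10 (30%) and neuronal genes in 2 of 14 (14.3%). The median number of TSSs was 2 in the glial list and 3 in the neuronal list. Of the glial genes with one, all 3 also had a thresholded summit, beside 30.3% of all genes with a weaker shared summit. Ribosomal protein genes, with a median of 2 TSSs, had one in 19 of 86 (22.1%), led by RpS7 (102.5 pooled, 66.6 and 39.7). A thresholded summit was found at 63 of the 86, beside 26.8% of all genes. Chemoreceptor genes, which are used in sensory neurons, had one in 5 of 119 (4.20%, interval 1.81 to 9.46). Gap and terminal genes had one in 1 of 7 (hb, 53.5), and pair-rule and segment polarity genes in 0 of 15. By nearest TSS, 11 of these 15 (73.3%) had some weaker shared peak, farther than 1 kb away, beside 28.7% of all genes. In the other lists this share ran from 14.3% (chemoreceptor genes) to 75% (Hox genes), so it was not particular to this list. No test was made for any list, and with 5 to 22 genes in most of them the intervals are wide.

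**Figure D5:**
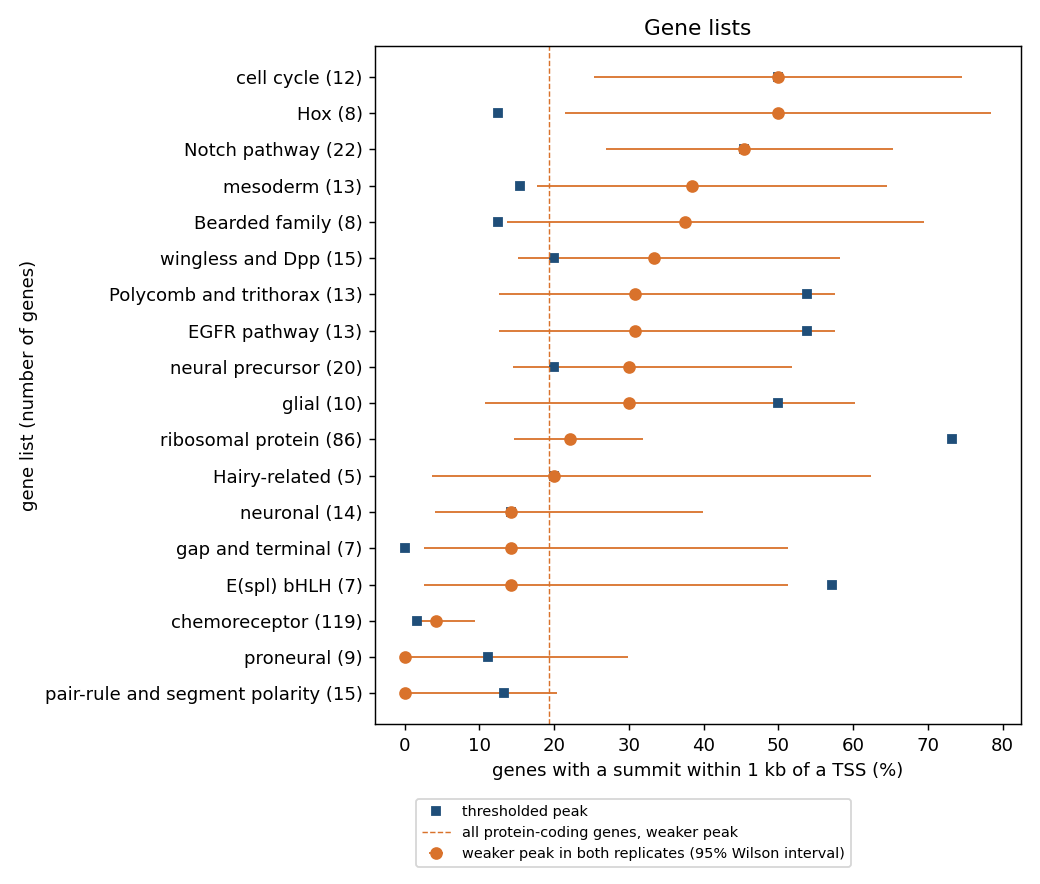
Share of the genes of each list (%) with a weaker shared summit within 1 kb of a TSS (circles with 95% Wilson intervals) or with a thresholded summit there (squares), with the number of genes in brackets and the share of all protein-coding genes for weaker shared summits (19.3%) as a dashed line. Hox, mesoderm and Bearded family genes are among those with more weaker shared than thresholded summits. Ribosomal protein genes have the opposite (22.1% against 73.3%, where 26.8% of all genes have a thresholded summit).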

How the data were processed

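ChIP-seq peak lists of 1 group with 2 biological replicates were used. Per the labels and deposited listings, the authors called peaks against a control on each replicate and on the pooled alignments, and thresholded the pooled list by the irreproducible discovery rate. The labels and file headers do not name the aligner or the peak caller. Each list gave a signal per peak, deposited by the authors on an unstated scale, and a −log10 q value deposited by the authors. The −log10 q did not follow signal throughout: 98 weaker shared peaks were above the lowest thresholded value. No read counts were given, so depth is unknown and its effect on precision cannot be stated.

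Weaker shared peaks were pooled dm6 peaks absent from the thresholded list with a summit (start plus offset) within 100 bp in both replicate lists. Members and gene lists were chosen with earlier results of these data known. Summits were classed on dm6 with Ensembl release 115 without transposable elements, on 6 arms, as promoter (within 500 bp of a TSS), coding exon, 5' UTR, 3' UTR, non-coding exon, intron or intergenic, in that order. Shares have 95% Wilson intervals, differences Newcombe intervals and paired motif windows exact intervals. Of 197 listed symbols, 6 were not matched or repeated another. Genes named were the 20 strongest, the 10 best by mean replicate rank, the 5 weakest, the edges, the E(spl) complex, up to 4 per list, the 10 genes with most peaks and up to 6 shown sequences. Of these the text prints those it describes. The matching, motif and interval steps were tested on simulated data. Python 3.11.15, numpy 2.4.6, pandas 2.3.3 and scipy 1.17.1 were used. Alternatives changed the match, the TSS distance, the length of the replicate lists, the threshold, the genome build and the replicates. Positions around the TSS, values by band of signal other than annotation, the share on X by list and the number of TSSs were added after seeing the data.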

Additional observations from a re-analysis of the deposited data

How the results depend on the processing

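The lower promoter share than that of thresholded peaks kept its direction and its interval kept excluding 0 under all 13 alternatives, with differences from -29.9 (weakest 1000 of the weaker shared peaks) to -10.9 points (strongest 1000). The higher share than that of other peaks below the threshold reversed within the 5 bands of pooled signal (-4.69 points) and within bands against peaks of 1 replicate (-5.09, chosen after seeing the data). It was -0.72 without replicate 2 and 7.56 without replicate 3, and the cause was not tested.

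The promoter share of 27.7% was 18.2% with TSSs within 200 bp, 37.7% within 1 kb, 25.2% with protein-coding TSSs only, 25.7% over 1 kb from thresholded summits (chosen after seeing the data), 28.8% with lists of equal length, 32.1% with the 15000 strongest peaks of each replicate and 31.5% with a stricter threshold. Leaving out a replicate gave 25.1% to 27.4%. The number of weaker shared peaks was 3588 with the 15000 strongest and 10718 to 14836 leaving out a replicate, and the number of genes was 1635 and 3426 to 4758. The share within 1 kb of a thresholded summit (13.1%) was 5.12% within 500 bp and 25.1% within 2 kb. It was 14.1% with summits matched within 50 bp, 14.4% within 200 bp, 15.1% by interval overlap of 50%, 14.6% with the 15000 strongest, 7.16% with the stricter threshold and 11.8% to 12.04% leaving out a replicate. The CACGTG summit share of discordant windows (44.1%) fell to 37.0% with the 15000 strongest and 41.0% with the stricter threshold, where the interval excluded 50%, and leaving out a replicate gave 45.03% to 48.7%. Apart from settings that move a distance or list length by construction, the causes of these moves were not tested. No paired analysis was possible because there was 1 group only. Depth is unknown, so missing a match cannot be told apart from low coverage.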

Other observations

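The 20 strongest weaker shared peaks, all with pooled signals between 107.9 and 108.1, comprised 7 promoter, 9 intronic and 2 intergenic summits, with 1 in a 5' UTR and 1 in a 3' UTR, and 4 of them lay within 1 kb of a thresholded summit. Besides Su(H), they included ctrip (signals of 56.8 and 49.9 in the replicates), vri, which encodes a circadian transcription factor (61.6 and 42.4), trh, which encodes the tracheal determinant Trachealess (54.1 and 53.3), and SREBP, the regulator of lipid synthesis (79.9 and 43.2). The intronic peak nearest to stet, a rhomboid-like gene, had 56.5 and 49.9. The strongest in a coding exon was at Snx27, with a pooled signal of 95.5. On dm3, 6540 of 17305 pooled peaks below the threshold (37.8%) met the same rule.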
